A study of Mus musculus with 36 samples.

Results

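The chromatin around 8 genes that encode sensors of cytosolic nucleic acid, or the adaptors directly below them, was followed in stimulated mouse dendritic cells. The genes were Ddx58 (also Rigi, the RNA helicase RIG-I), Ifih1 (MDA5), Dhx58 (LGP2), Mavs, Mb21d1 (also Cgas), Tmem173 (also Sting1), Zbp1 and Aim2. They were chosen with earlier results of these data known. The regions described are the rows of the accessibility count table whose interval lies over one of these gene bodies or within 10 kb on either side of it, a rule that used no measured value. It took 114 of the 119751 intervals (peaks) in the table: 42 at Ifih1, 29 at Aim2, 9 at Mb21d1, 8 at Ddx58, 7 each at Dhx58 and Mavs, and 6 each at Tmem173 and Zbp1. None of them fell in more than 1 of the 8 windows, and all 114 passed the filter on low counts.

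The assay was ATAC-seq, in which a transposase inserts adapters into open chromatin, so that the number of sequenced fragments in a peak follows how accessible that stretch of DNA is. Dendritic cells were grown from bone marrow of female C57BL/6J mice aged 6 to 8 weeks with GM-CSF at 15 ng/mL and stimulated for 6 h, and nuclei of 50000 cells went into each library. The 36 libraries form 18 groups of 2. One group is the control (Ctrl), and 6 groups received a single ligand: P (labelled PAM), L (LPS), H (labelled HMW), S (SeV), cG (3',3'-cGAMP) and Z (labelled zymosan depleted). The 8 pairs are PL, PH, LH, PS, PcG, ScG, ZS and ZcG, and the 3 triplets are PLH, PScG and ZScG, each named by its ligands. All cells came from GM-CSF cultures of bone marrow, which are mixed in composition. In such bulk samples, fewer cells of a type and less accessibility per cell cannot be told apart. The labels do not say whether the 2 libraries of a group came from separate mice or cultures, so the p-values measure only the spread between these libraries.

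RIG-I and MDA5 bind double-stranded or otherwise foreign RNA in the cytosol and signal through MAVS on mitochondria to the kinases that switch on type I interferon, while LGP2 has no signalling domain of its own and tunes both. cGAS binds DNA and makes cyclic GMP-AMP, the ligand of STING, which activates the same kinases. ZBP1 binds nucleic acid in the Z conformation and can start necroptosis, and AIM2 binds DNA and assembles an inflammasome. Several of these genes, among them Ddx58, Ifih1, Dhx58 and Zbp1, are themselves induced by interferon, which dendritic cells make when they meet microbial ligands. LPS, from bacterial membranes, is sensed outside the cytosol by TLR4, while 3',3'-cGAMP is a bacterial ligand of STING.

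The start regions are shown because the start-site peaks carry many of the results below. RefSeq promoter sequences on GRCm38.p6 were at hand for 5 of the 8 genes. Each of the first 5 lines gives the 250 bases before the start, 5′ to 3′ on the gene's strand. The last 2 give short stretches that hold a site just after the start. The stretch at Ddx58 opens with the bases that end its upstream line, which lie before the start. Capitals mark a match to the core of the interferon-stimulated response element, searched as GAAANNGAA on both strands.
Ddx58, chr4:40239826-40240075, minus strand: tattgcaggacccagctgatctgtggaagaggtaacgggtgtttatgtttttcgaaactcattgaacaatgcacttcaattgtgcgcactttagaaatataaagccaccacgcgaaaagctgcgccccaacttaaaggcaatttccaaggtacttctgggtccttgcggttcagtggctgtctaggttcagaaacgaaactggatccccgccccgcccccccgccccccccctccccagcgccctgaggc
Ifih1, chr2:62646256-62646505, minus strand: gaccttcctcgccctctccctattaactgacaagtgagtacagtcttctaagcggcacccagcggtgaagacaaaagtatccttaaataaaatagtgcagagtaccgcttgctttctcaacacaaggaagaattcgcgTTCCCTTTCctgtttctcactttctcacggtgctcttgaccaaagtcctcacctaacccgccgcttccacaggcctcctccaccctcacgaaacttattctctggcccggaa
Mavs, chr2:131233813-131234062, plus strand: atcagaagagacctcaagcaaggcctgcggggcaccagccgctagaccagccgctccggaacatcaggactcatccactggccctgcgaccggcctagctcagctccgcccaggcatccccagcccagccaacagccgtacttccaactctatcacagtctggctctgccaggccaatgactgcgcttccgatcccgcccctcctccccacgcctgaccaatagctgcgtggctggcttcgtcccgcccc
Mb21d1, chr9:78443238-78443487, minus strand: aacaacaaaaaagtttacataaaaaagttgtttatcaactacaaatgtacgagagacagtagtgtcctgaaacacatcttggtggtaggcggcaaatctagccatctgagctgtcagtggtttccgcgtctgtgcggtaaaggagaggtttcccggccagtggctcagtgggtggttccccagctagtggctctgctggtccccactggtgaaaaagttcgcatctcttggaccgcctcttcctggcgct
Aim2, chr1:173420354-173420603, plus strand: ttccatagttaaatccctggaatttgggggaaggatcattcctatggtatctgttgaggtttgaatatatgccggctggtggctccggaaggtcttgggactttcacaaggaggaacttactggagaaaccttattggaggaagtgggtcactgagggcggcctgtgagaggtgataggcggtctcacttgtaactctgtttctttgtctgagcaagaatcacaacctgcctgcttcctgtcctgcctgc
Ddx58 after the start, chr4:40239803-40239832, minus strand: ctgaggcagtTTCGATTTCctatggccagc
Ifih1 after the start, chr2:62646206-62646235, minus strand: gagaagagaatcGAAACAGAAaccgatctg

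The response element core occurred at Ddx58 once, 4 bases after the start, and at Ifih1 at -112 and at 33, counted from the start site. Of all 32851 RefSeq promoters of the same 300-base window, 8.56% hold this core. The other motifs searched were the interferon gamma activated site TTCNNNGAA (8.3% of all promoters), the NF-kappaB site GGNNTTTCC (5.82%) and the AP-1 site TGANTCA (7.81%), each on both strands. None of them was found at these 5 genes, and Mavs, Mb21d1 and Aim2 held none of the 4 motifs. A match is a stretch of letters, not a measured binding site.

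Outside the mitochondrial peak the libraries held between 8181254 and 21985891 counts, and the log2 values of the 2 libraries of a group correlated across peaks with r between 0.901 and 0.958. Levels are given as CPM, the counts per 1000000 counts outside the mitochondrial peak after TMM scaling. Over all libraries a member peak averaged between 0.314 and 51.3 CPM (median 1.79, against 2.15 over all tested peaks). One peak over the mitochondrial genome held 61.0% ± 1.23 (SD, n = 2) of the counts in Ctrl. It held 58.3% to 63.0% in Z, ZcG, ScG and ZScG, 54.6% in ZS and 44.4% to 51.6% in the other 12 groups. Its part in the differences from Ctrl was not tested, but P, L, H, S and cG all belong to those 12, so contrasts among them hold neither Ctrl nor a group of high share. Dendritic markers (Itgax, Csf2ra, Cd74, Batf3, Irf4, H2-Ab1, Zbtb46 and Flt3) all had peaks, with 143 to 220 summed CPM per library. For macrophages and monocytes, 5 of 6 marker genes had peaks (94.7 to 154 CPM, highest in Ctrl with a mean of 148 and lowest in PScG with 101), and Ccr2 had none. T cells had peaks at 2 of 5 markers (4.43 to 23.2 CPM, with group means from 4.49 in P to 19.8 in ZScG), and Cd3e and Cd8a had none. For neutrophils, 1 marker had a peak (S100a8, 6.37 to 21.7 CPM, group means from 7.25 in ZScG to 18.9 in Z), and Ly6g had none. Erythroid markers held 11.3 to 19.8 CPM over 2 peaks and the natural killer cell markers 7.47 to 18.5 CPM at 1 peak, and mast cells had peaks at 0 of 3 markers. How far shifts in cell composition enter the results below was not tested.

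The first question was which ligands changed accessibility at the sensor loci at all. Each stimulated group was compared with Ctrl by edgeR's quasi-likelihood test on all 36 libraries, and a peak was called at a Benjamini-Hochberg adjusted p under 0.05 over all 119464 tested peaks. Against Ctrl, 77 of the 114 peaks were called in at least 1 of the 17 comparisons. Of these, 49 were called higher at least once and 30 lower, and 2 count in both. The share of all tested peaks called at least once was not computed, and the comparison with PScG alone called 37.1% of all peaks. The number 77 is therefore no sign that these loci changed more than others. These 17 comparisons share the 2 Ctrl libraries.

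S, L and cG raised the most sensor peaks among the single ligands, and P and Z the fewest. With S, 28 of 114 peaks rose (24.6%, against 14.1% of all tested peaks) and 4 fell (3.51%, against 13.8%). With L, 23 rose (20.2%, against 11.2%) and 4 fell (3.51%, against 11.1%). With cG, 21 rose (18.4%, against 11.6%) and 2 fell (1.75%, against 11.6%). With H, 12 rose (10.5%, against 5.21%) and 1 fell (0.877%, against 5.46%). For these 4 ligands the shares that rose lay above the background and the shares that fell below it, while for Z the 5 peaks that rose (4.39%, against 4.16%) lie close to it. With P, 5 peaks rose (4.39%, against 11.1%) and 7 fell (6.14%, against 9.45%), so P was below the background in both directions. The median log2 fold change over the 114 peaks was 0.311 with S, 0.309 with L and -0.155 with P, beside medians of 0.00409, 0.0293 and -0.0385 over all tested peaks.

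Among the pairs, LH raised 27 peaks (background 11.3%) and PL 24 (13.8%), while PH raised 16 (13.6%). PS raised 27 peaks (17.3%) and PcG 23 (16.8%), and the pairs without P or L raised 26 with ZS (14.4%), 20 with ScG (14.4%) and 18 with ZcG (11.4%). The triplets raised 29 with ZScG (16.2%), 23 with PLH (14.9%) and 22 with PScG (19.0%), so the share at the sensor loci was near the background for PScG and PH. Peaks that fell were most numerous in the combinations: 17 with PScG (background for lower peaks 18.1%), 16 with ZScG (16.1%), 15 with PcG (16.2%), 13 with PS (16.2%) and 13 with PLH (14.7%). As shares of the 114 peaks (11.4% to 14.9%), all 5 lie below the background share of lower peaks. Within the groups whose mitochondrial share was close to that of Ctrl, the counts of peaks that rose were 29 (ZScG), 20 (ScG), 18 (ZcG) and 5 (Z).

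**Figure D1:**
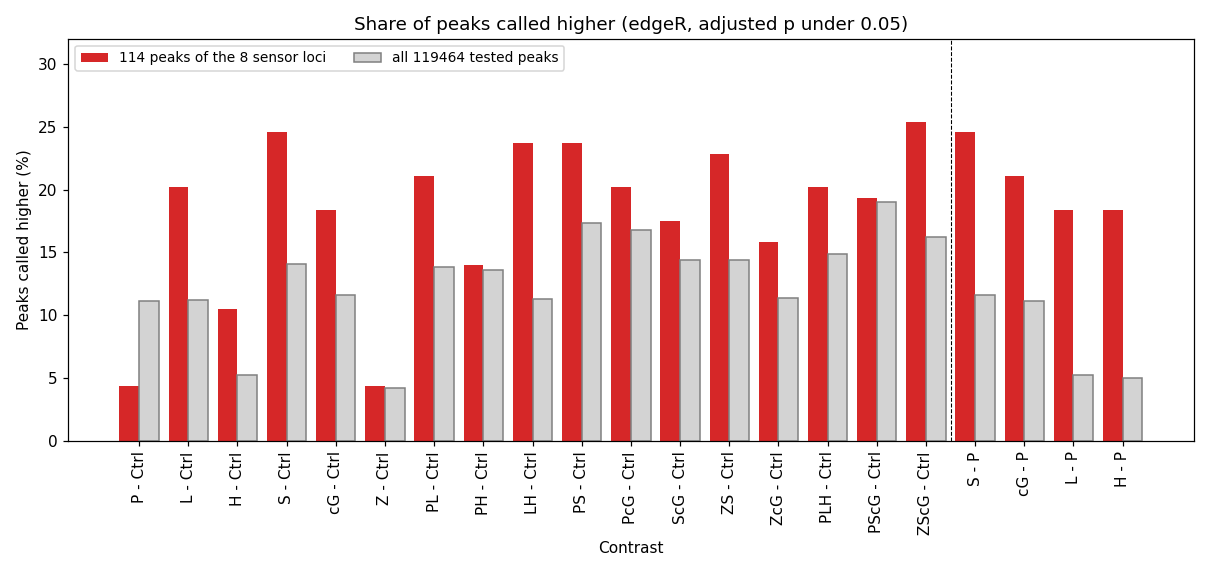
Share of peaks called higher (vertical axis, %) in each contrast (horizontal axis), in red for the 114 sensor peaks and in grey for all 119464 tested peaks. The red bar stands well above the grey one for L, S and LH against Ctrl and for the 4 contrasts against P at the right, while for P against Ctrl it is lower (4.39% beside 11.1%).

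The split between higher and lower peaks depends on how libraries are scaled. Scaling by total counts in place of TMM moved the median of all peaks up by 0.195 to 0.423 (log2) in 13 of the 17 contrasts and by -0.0569 to 0.073 in Z, ZcG, ScG and ZScG. With it, the numbers of sensor peaks higher and lower became 19 and 0 for P, 36 and 1 for L, 41 and 1 for S, 37 and 1 for PL and 36 and 1 for PH. The higher share of all tested peaks became 19.4% for P (sensor peaks 16.7%), 26.1% for L (31.6%), 26% for S (36%), 22.2% for PL (32.5%) and 22.2% for PH (31.6%). For combinations with S or cG the numbers became 46 and 3 (PS), 39 and 4 (PcG), 28 and 5 (ZS) and 36 and 6 (PScG), and for PLH 33 and 4. There the higher share of all peaks was 30.2% (PS), 30.5% (PcG), 19.6% (ZS), 29.7% (PScG) and 25.3% (PLH), beside 40.4%, 34.2%, 24.6%, 31.6% and 28.9% of sensor peaks. The fold changes given are relative to the TMM reference. Of the peaks described below as lower in single ligands, those of Ddx58, Mb21d1 and Tmem173 were no longer called with total counts (adjusted p from 0.0512 to 0.522). Without Ctrl replicate 2 the peaks that rose numbered 2 for P, 16 each for S, PS and ZS, 15 each for PcG and PLH, and 12 for ScG, and without Ctrl replicate 1 they numbered 12 for cG, 2 for Z, 13 for PcG and 16 for ZS. Leaving out a stimulated library gave 0 for P (without its replicate 2), 16 for S (replicate 1), 2 and 3 for Z (replicates 1 and 2), 11 for PcG (replicate 2), 17 for ZS (either replicate), 13 for PScG (replicate 2) and 17 for ZScG (replicate 1).

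Ifih1 supplied most of the peaks that rose: 19 of 28 with S, 16 of 23 with L, 16 of 21 with cG, 9 of 12 with H and 4 of 5 with Z. At the other 7 loci, with 72 peaks, 9 rose and 3 fell with S, 7 rose and 4 fell with L, 5 rose and 2 fell with cG, 3 rose and 1 fell with H, and 2 rose and 6 fell with P. The shares that rose there were 12.5% with S (14.1% of all tested peaks), 9.72% with L (11.2%), 6.94% with cG (11.6%), 4.17% with H (5.21%) and 2.78% with P (11.1%). Without Ifih1, then, the share that rose was below that of all peaks for each of these 5 ligands. The shares that fell were 4.17% with S, 5.56% with L, 2.78% with cG, 1.39% with H and 8.33% with P, beside 13.8%, 11.1%, 11.6%, 5.46% and 9.45% of all peaks. In the combinations with the most lower peaks, the share that fell at these 7 loci was 20.8% with PScG and 19.4% each with PcG and ZScG. The shares of all peaks there were 18.1%, 16.2% and 16.1%. With PS and PLH the shares at these loci were 16.7% and 15.3%, close to the 16.2% and 14.7% of all peaks. With total-count scaling, lower calls over all sensor loci dropped to 6 with PScG, 4 each with PcG and PLH, and 3 with PS. With ZScG they numbered 15, in place of 16. The 42 peaks of Ifih1 lie along one gene and are not independent of each other. The loci are described in turn, from the RNA sensors to the DNA sensors.

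Ddx58 encodes RIG-I, which recognises the 5′ end of short foreign RNA. The gene lies on the minus strand at chr4:40203777-40239825, and its start-site peak (chr4:40238494-40240539) held 8.85 and 13.5 CPM in the 2 Ctrl libraries. It held 14.5 and 17.2 with L, 14.9 and 17.6 with S, 15.7 and 19.2 with cG, 16.8 and 12.9 with H and 8.47 and 8.23 with P. The Ctrl libraries differ widely, and the P libraries lie below both of them. On the log2 scale the peak rose with cG by 0.63 ± 0.18 (SE; adjusted p = 0.00354), with S by 0.53 ± 0.17 (SE; adjusted p = 0.0136), with L by 0.50 ± 0.17 (SE; adjusted p = 0.0264) and with ZS by 0.47 ± 0.18 (SE; adjusted p = 0.0415). It was called in none of the other 13 comparisons with Ctrl. All 4 calls rest on the low Ctrl replicate 1: without it the values were 0.37, 0.27, 0.24 and 0.20, with adjusted p between 0.247 and 0.558 in edgeR. From the lowest group mean (P, 8.35 CPM) to the highest (cG, 17.4), 16 of 17 neighbouring groups overlapped in their libraries.

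Within the body of Ddx58, peaks fell where they changed. The peak at chr4:40233149-40233617 held 5.24 and 3.76 CPM in Ctrl, 2.44 and 2.02 with P and 1.26 and 1.28 with PScG, and all 34 stimulated libraries were under both Ctrl values. It fell in 11 of 17 comparisons, by 1.94 ± 0.40 (SE) with PS on the log2 scale. With P its value was -1.01 ± 0.39 (SE; adjusted p = 0.0488), a call lost without Ctrl replicate 1 (-0.75, adjusted p = 0.315) or without either P library. A second body peak (chr4:40205586-40205903) held 1.75 and 1.64 CPM in Ctrl, 0.720 and 0.431 with S and 0.398 and 0.502 with cG. Its log2 values were -1.55 ± 0.59 (SE; adjusted p = 0.0356) with S and -1.88 ± 0.62 (SE; adjusted p = 0.017) with cG in edgeR, and both calls were lost when any 1 library of the compared groups was left out (adjusted p between 0.052 and 0.232). The third (chr4:40217833-40218260) fell in 5 comparisons, all with combinations of ligands.

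Ifih1 encodes MDA5, the sensor of long double-stranded RNA, and its locus held most of the peaks that rose. The summed level over its 42 peaks was 113 CPM ± 5.80 (SD, n = 2) in Ctrl and 106 ± 3.38 with P. It was 183 ± 0.588 with L, 202 ± 2.31 with S, 192 ± 0.717 with cG and 205 ± 12.5 with LH. The start-site peak (chr2:62645322-62647398) made up 41.1 CPM of this sum in Ctrl and 52.7 with S. It held 42.2 and 40.0 CPM in Ctrl, 54.4 and 51.1 with S, 56.3 and 54.7 with cG, 46.2 and 53.1 with L and 37.9 and 34.2 with P. Both libraries of S, cG and L were above both Ctrl libraries, and those with P below. The peak rose in 6 of 17 comparisons, by 0.43 ± 0.11 (SE; adjusted p = 0.000929) with cG, 0.36 ± 0.11 (SE; adjusted p = 0.00549) with S and 0.28 ± 0.11 (SE; adjusted p = 0.0476) with L, and by 0.36, 0.40 and 0.43 with ScG, ZcG and ZScG. The call with L was lost without either Ctrl library (adjusted p = 0.1 and 0.224) or without L replicate 2 (0.411), and those with S and ScG without Ctrl replicate 2 (0.0685 and 0.075) or replicate 1 of their own group (0.0709 and 0.0986). The call with ZcG was lost without its replicate 2 (0.112).

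The larger changes lay in the gene body and beyond the gene's 3′ end. Of the 32 other peaks over the gene body, 22 rose in at least 1 comparison, and their summed level was 34.7 CPM in Ctrl and 66.0 with S. Of the 4 peaks past the 3′ end, 3 rose, and their sum was 12.6 CPM in Ctrl and 59.5 with S. The 5 peaks upstream of the start summed to 24.7 CPM in Ctrl and 23.8 with S. The median log2 fold change with S was 1.81 for body peaks, 2.02 for those downstream and -0.41 for those upstream.

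One site beyond the gene carried much of this change, a peak of 4813 bp at chr2:62587194-62592006, 3611 bp past the 3′ end of Ifih1 and 11684 bp from Fap, the next gene on that side. It was singled out after its values were seen. It held 9.29 and 8.01 CPM in Ctrl and 9.0 and 10.8 with P. It held 42.2 and 37.3 with L, 40.8 and 45.4 with S and 38.2 and 40.8 with cG. The values were 28.2 and 26.7 CPM with H and 14.3 and 18.4 with Z. The libraries thus fall in steps: Ctrl and P overlap, Z stands somewhat higher, H higher again, and L, S and cG are highest and overlap each other. The log2 fold change over Ctrl was 2.32 ± 0.14 (SE; adjusted p = 2.15e-35) with S, 2.2 ± 0.14 (SE; adjusted p = 1.13e-32) with L and 2.19 ± 0.14 (SE; adjusted p = 5.46e-32) with cG. It was 1.67 ± 0.15 (SE; adjusted p = 8.98e-20) with H and 0.93 ± 0.16 (SE; adjusted p = 6.12e-06) with Z. With P it was 0.20 ± 0.16 (SE; adjusted p = 0.43), the only one of 17 comparisons in which this site was not called. These 16 calls held in DESeq2 and with each library of the compared groups left out. A second downstream peak, starting at chr2:62584443, also rose in 16 comparisons, by 1.72 ± 0.25 (SE) with S. Its call with Z (0.86, adjusted p = 0.0469) was lost when any 1 library was left out.

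Other Ifih1 peaks also rose, some of them from little or no signal in Ctrl. The peak at chr2:62592173-62593122 held 0.219 and 0.579 CPM in Ctrl, 3.66 and 5.9 with S and 3.26 and 4.3 with cG. It rose in 15 comparisons, by 3.52 ± 0.48 (SE) with S and 2.95 ± 0.51 with H, and the value with P was 0.77 (adjusted p = 0.443). The intragenic peak at chr2:62612156-62612659 held 0.109 and 0.193 CPM in Ctrl and 2.55 and 1.29 with S, and rose in 14 comparisons. Another intragenic peak, at chr2:62596264-62596538, had no count in either Ctrl library. Against a floor of 3 counts per library (0.309 CPM) it was at least 3.51-fold higher with L, 2.84-fold with cG, 2.79-fold with H, 1.94-fold with S and 4.42-fold with PL. Its counts were 20 and 14 with L, and 4 and 3 with P. On the promoter side, a peak centred at -2707 bp from the start held 3.28 and 4.92 CPM in Ctrl and 11.8 and 12.8 with S. It rose in 15 comparisons, by 1.57 ± 0.23 (SE) with S.

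**Figure D2:**
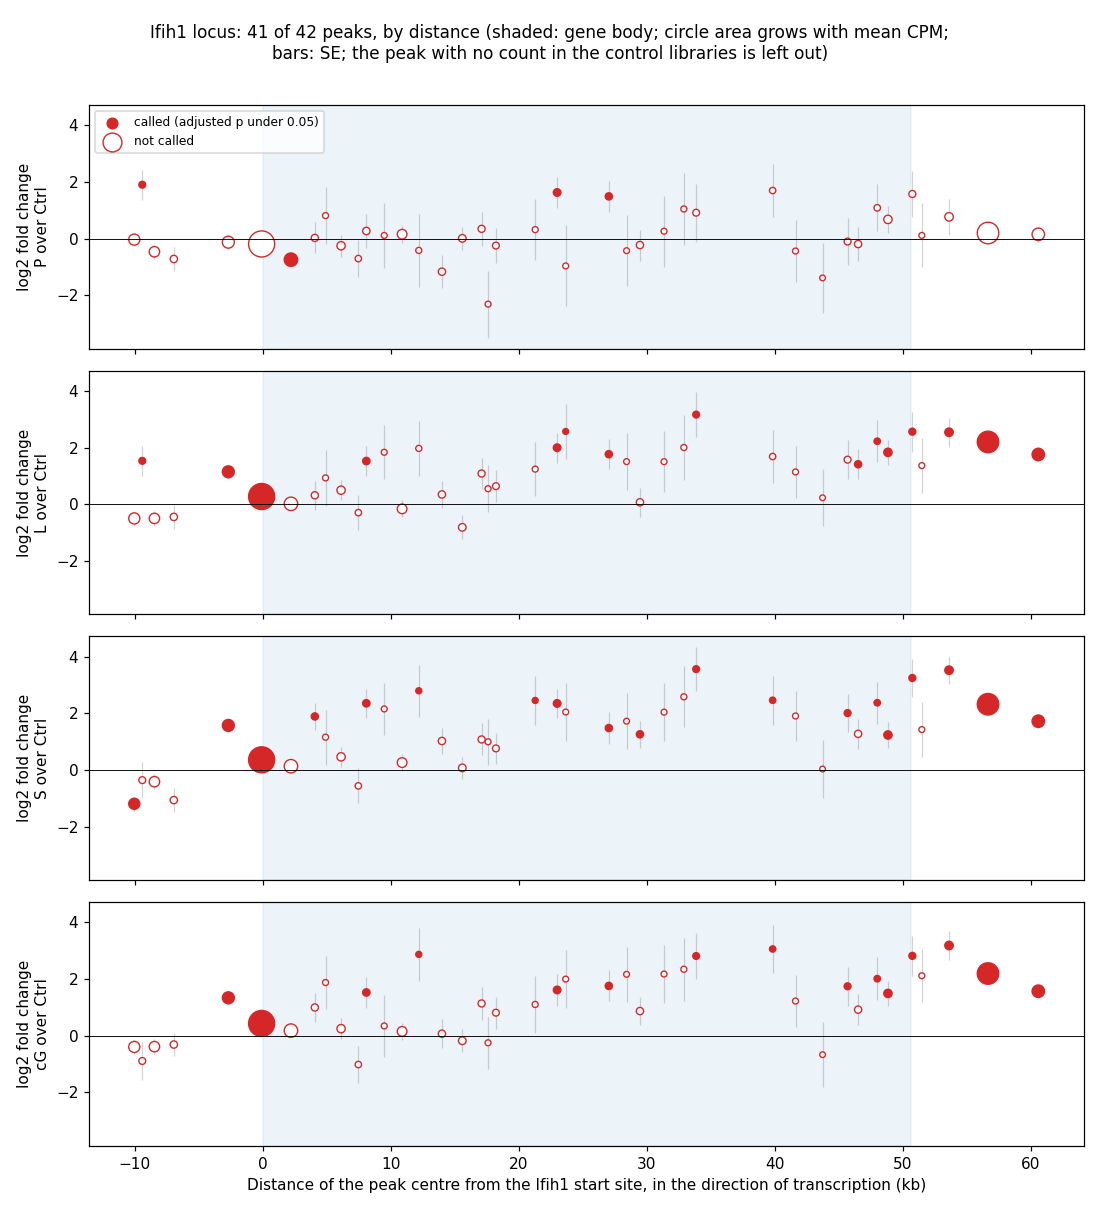
Log2 fold change over Ctrl (vertical axis, SE bars) of 41 Ifih1 peaks against the distance of the peak centre from the start site along the gene (horizontal axis, kb), for P, L, S and cG. Filled circles are called peaks and the shaded band is the gene body. With L, S and cG filled circles above 0 run through the body and past its end, where the largest circle lies near a log2 fold change of 2.2, while with P 3 peaks rose.

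Dhx58 encodes LGP2, the regulator of the other 2 helicases, and its start-site peak rose in nearly every stimulated group. The peak (chr11:100701132-100704696) is 3565 bp long and reaches from the start into the gene body. For Dhx58, Tmem173 and Zbp1 no annotated start was at hand, and the gene end with the most accessible peak was taken as the start. The Dhx58 peak held 24.6 and 27.2 CPM in Ctrl, 31.5 and 31.4 with P and 32.3 and 29.4 with Z. It held 58.2 and 54.0 with L, 46.9 and 49.8 with S, 52.9 and 51.8 with cG and 44.5 and 41.8 with H. All 34 stimulated libraries stood above both Ctrl libraries, with PScG highest at 57.2 and 59.1 CPM. The peak rose in 15 comparisons, by 1.11 ± 0.11 (SE; adjusted p = 2.67e-17) with L, 1.01 ± 0.11 (SE; adjusted p = 1.25e-14) with cG, 0.90 ± 0.11 (SE; adjusted p = 2.72e-12) with S and 0.74 ± 0.11 (SE; adjusted p = 1.17e-07) with H. The largest value was 1.16 ± 0.11 with PScG. The P and Z values were 0.28 ± 0.11 (SE; adjusted p = 0.0651) and 0.25 ± 0.12 (SE; adjusted p = 0.23). The 15 calls held with each library of the compared groups left out, and 13 of 17 neighbours in the order of group means overlapped. Of the other 6 peaks in this window, the weak body peak at chr11:100699742-100700002 had 0.219 and 0.289 CPM in Ctrl and 1.48 and 1.4 with L. Its log2 fold change was 2.45 ± 0.75 (SE; adjusted p = 0.00968), a call lost without either Ctrl library (adjusted p = 0.093 and 0.0594). The peaks at chr11:100692294-100692493 and chr11:100694979-100695284 held group means between 0.155 and 1.28 CPM and between 0.577 and 2.48 CPM. The window also holds Kat2a, Zfp385c, Hspb9 and Gm38483.

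Mavs encodes the mitochondrial adaptor shared by RIG-I and MDA5. Its start-site peak (chr2:131233634-131234505) held between 15.7 and 23.2 CPM over the 36 libraries, and 20.2 and 18.7 in Ctrl. It was called in 0 of 17 comparisons by edgeR and by DESeq2, and 0 had an unadjusted p under 0.05. Scaling by total counts called it higher in 8. A peak past the 3′ end (chr2:131253484-131254387) held 3.93 and 2.99 CPM in Ctrl, 8.18 and 6.27 with S and 5.65 and 5.95 with cG. This downstream peak rose in 11 comparisons, by 1.07 ± 0.28 (SE; adjusted p = 0.00142) with S and 0.75 ± 0.29 (SE; adjusted p = 0.0438) with cG. Without Ctrl replicate 2 those values were 0.87 (adjusted p = 0.0588) and 0.56 (0.296), and the cG call was also lost without Ctrl replicate 1 or either cG library. The upstream peak at chr2:131232572-131232818 was the one Mavs peak that rose with P, by 2.42 ± 0.78 (SE; adjusted p = 0.0155), a call lost without Ctrl replicate 1 (1.52, 0.269) or P replicate 2 (1.56, 0.315). The body peak at chr2:131244518-131244975 had group means from 3.17 CPM (ZcG) to 7.91 CPM (PScG).

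**Figure D3:**
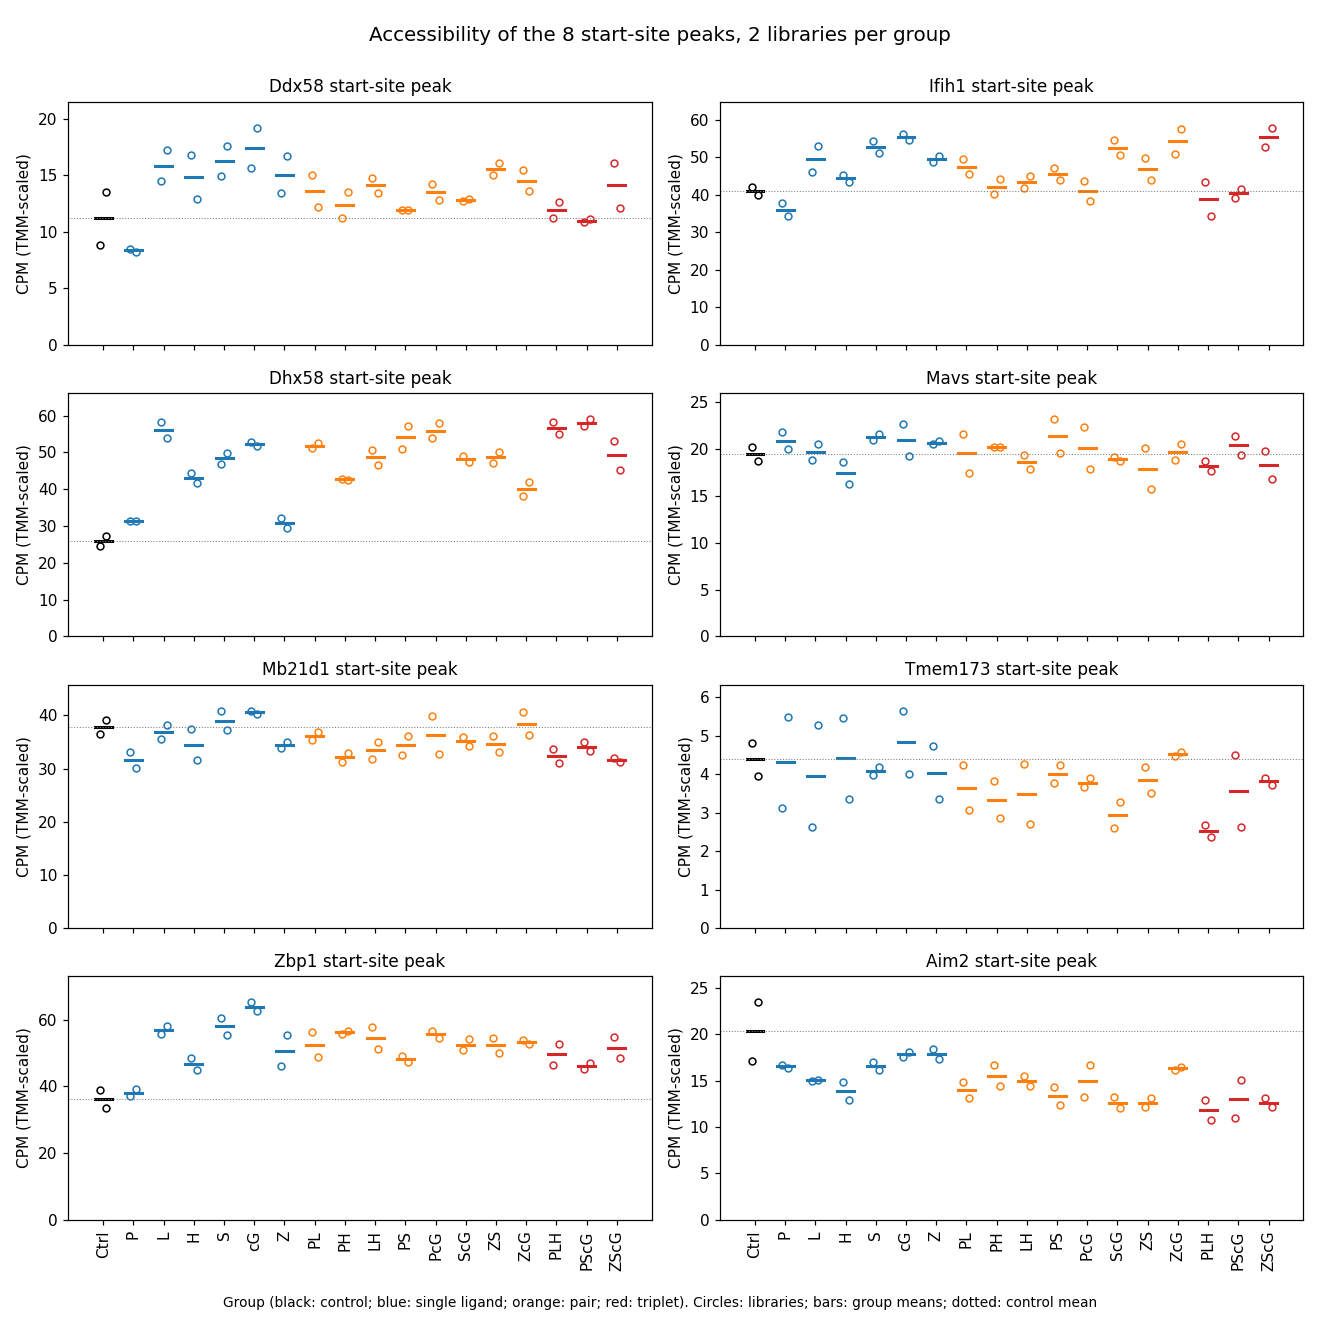
Accessibility (vertical axis, CPM from 0) of the 8 start-site peaks in each of the 18 groups (horizontal axis); circles are the 2 libraries, bars their mean, and the dotted line is the Ctrl mean. Dhx58 and Zbp1 lie above the Ctrl line in nearly every group, Aim2 lies below it in all 17 stimulated groups, and the means of Mb21d1 and Tmem173 lie below it in 14 of 17 groups each and that of Mavs in 6.

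Mb21d1 encodes cGAS, the DNA sensor that makes the STING ligand. Its start-site peak (chr9:78442479-78443621), which also overlaps the neighbour Mto1, held 30.2 to 40.9 CPM over the 36 libraries. It was called in 0 of 17 comparisons by edgeR and by DESeq2, with 3 lower values at an unadjusted p under 0.05, while total-count scaling called it higher in 4. The peak past the 3′ end (chr9:78428126-78428714) held 8.52 and 5.98 CPM in Ctrl, 4.35 and 4.04 with P and 2.83 and 4.15 with L. It fell in 12 comparisons, by 1.03 ± 0.30 (SE) on the log2 scale with L (adjusted p = 0.0057) and by 0.78 ± 0.30 with P (adjusted p = 0.0481). Without Ctrl replicate 1 these became -0.76 (0.161) and -0.51 (0.401), and the P call was also lost without either P library and the L call without L replicate 1. A weak peak on the promoter side, within Mto1 (chr9:78450434-78450796), had 0.656 and 0 CPM in Ctrl and 1.61 and 3.13 with ZS, and rose in 11 comparisons. Its value with S, 2.05 ± 0.71 (SE; adjusted p = 0.0199), rested on Ctrl replicate 2 (0.99 without it, adjusted p = 0.397) and S replicate 1 (0.65, 0.685). Another peak in Mto1 (chr9:78447906-78448981) fell with P by 0.50 ± 0.17 (SE; adjusted p = 0.02) on the log2 scale, a call lost without Ctrl replicate 2 (-0.39, 0.204) or P replicate 2 (-0.28, 0.403).

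Tmem173 encodes STING, the receptor of cyclic GMP-AMP and so the target of the cG ligand itself. The start-site peak (chr18:35739766-35740708) is weak, with 2.36 to 5.65 CPM over all libraries, and was called in 0 of 17 comparisons by edgeR and by DESeq2 (1 lower at an unadjusted p under 0.05). Upstream, the peak at chr18:35748221-35748827 held 4.37 and 6.27 CPM in Ctrl, 2.62 and 2.95 with S and 3.1 and 4.16 with cG. With S it fell by 0.94 ± 0.32 (SE; adjusted p = 0.0189) on the log2 scale, a call lost without Ctrl replicate 2 (-0.65, 0.266) or either S library. Within the gene, the peak at chr18:35738650-35739194 rose with S by 1.43 ± 0.46 (SE; adjusted p = 0.011), a call lost without Ctrl replicate 2 (1.06, 0.176) or S replicate 1 (1.37, 0.0529). The peak at chr18:35746872-35747422, lower with ZScG in edgeR but not with total-count scaling, had group means from 1.34 CPM (ZScG) to 3.20 CPM (Ctrl). With cG, the ligand of this receptor, the start-site value was 0.14 ± 0.31 (SE; adjusted p = 0.798), a difference not detectable at this depth.

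Zbp1 encodes the sensor of Z-form nucleic acid that can start necroptosis. Its start-site peak (chr2:173217280-173220029) held 38.9 and 33.6 CPM in Ctrl and 37.0 and 39.2 with P. It held 65.3 and 62.6 with cG, 60.6 and 55.6 with S, 55.7 and 58.1 with L, 46.1 and 55.4 with Z and 48.7 and 45.0 with H. The P libraries overlap Ctrl and the others do not. The peak rose in 16 of 17 comparisons, by 0.82 ± 0.11 (SE; adjusted p = 4.3e-11) with cG, 0.68 ± 0.10 (SE; adjusted p = 2.42e-08) with S and 0.65 ± 0.10 (SE; adjusted p = 1.38e-07) with L. It rose by 0.49 ± 0.11 (SE; adjusted p = 0.000894) with Z and 0.37 ± 0.11 (SE; adjusted p = 0.0107) with H, and the P value was 0.08 ± 0.11 (SE; adjusted p = 0.686). Without Ctrl replicate 2, the calls with Z (0.39, adjusted p = 0.0824), H (0.27, 0.212), PS (0.31, 0.0642) and PScG (0.25, 0.145) were lost. Those with Z and PScG were also lost without their own replicate 2, and that with H without its replicate 1. The upstream peak at chr2:173224034-173224541 was the other Zbp1 peak called against Ctrl, lower with PScG (-1.11 ± 0.38, SE; adjusted p = 0.0132), and that call was lost without Ctrl replicate 1 (-1.10, 0.055) or PScG replicate 2 (-0.91, 0.139), and with total-count scaling (-0.75, 0.107).

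Aim2 encodes the DNA sensor of the AIM2 inflammasome, and its start-site peak went the other way. The peak (chr1:173420209-173421062) held 17.2 and 23.4 CPM in Ctrl, 16.9 and 16.2 with S, 12.9 and 10.7 with PLH and 13.1 and 12.1 with ZScG. Both libraries were under both Ctrl libraries in 15 of 17 groups. It fell in 12 comparisons, by 0.78 ± 0.16 (SE; adjusted p = 4.1e-05) on the log2 scale with PLH, and was not called with P, S, cG, Z or ZcG. The Ctrl libraries are far apart, and without Ctrl replicate 2 the call with PLH was the only one left. Of the other 11, that with ScG became -0.44 (adjusted p = 0.115) and that with PH -0.15 (0.663). DESeq2 called 10 of the 17 lower, and total-count scaling 4. A body peak (chr1:173427281-173427867) fell further and was chosen after its values were seen. It held 15.2 and 15.4 CPM in Ctrl, 16.6 and 15.4 with cG and 6.03 and 4.55 with ZScG, and its log2 fold change was -1.52 ± 0.22 (SE; adjusted p = 5.6e-09) with ZScG and 0.06 with cG (adjusted p = 0.855). A more accessible peak than that at the start site lies next to it, centred at -1421 bp (chr1:173418570-173419796). It was called lower in 2 of 17 comparisons and higher in 1, and in none with a single ligand. Other Aim2 peaks rose. The peak at chr1:173465348-173465667, near the gene's 3′ end, held 0.328 and 0.193 CPM in Ctrl, 1.77 and 1.46 with L and 0.153 and 0.0722 with P. It rose in 9 comparisons, by 2.6 ± 0.74 (SE; adjusted p = 0.00496) with L and 2.29 with cG. Without Ctrl replicate 2 those values were 2.26 (adjusted p = 0.0837) and 1.95 (0.152), and the cG call was also lost without Ctrl replicate 1 (0.0629) or cG replicate 2 (0.516). The body peak at chr1:173442287-173442497 rose with P by 2.99 ± 1.01 (SE; adjusted p = 0.0209) on the log2 scale, and it too was lost without Ctrl replicate 2 (1.98, 0.256) or P replicate 2 (2.78, 0.0998). Over the 29 Aim2 peaks, 3 rose and 3 fell with L (10.3% each, beside 11.2% and 11.1% of all tested peaks). With S 3 rose and 1 fell (10.3% and 3.45%, beside 14.1% and 13.8%). With ZScG 3 rose and 7 fell (10.3% and 24.1%, beside 16.2% and 16.1%). The shares that rose were thus not above those of all peaks. The Aim2 window extends over Cadm3 and Ifi206, a relative of Aim2. The annotated gene body is 116494 bp long and begins at chr1:173349547, while the start site used lies inside it at 173420604. Part of the 29 peaks therefore lies upstream of that start, the farthest centred at -80910 bp.

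A second question was how the other single ligands differ from P, which raised few sensor peaks above Ctrl. These 4 contrasts share the P libraries and use none of Ctrl. Against P, 28 sensor peaks were higher with S (24.6%, background 11.6%) and 7 lower (6.14%, background 12.9%). With cG, 24 were higher (21.1%, background 11.1%) and 4 lower (3.51%, background 12.7%). L gave 21 higher (18.4%, background 5.19%) and 2 lower (1.75%, background 5.87%), and H gave 21 higher (18.4%, background 4.96%) and 5 lower (4.39%, background 7.18%). At the 72 peaks outside Ifih1, the higher shares were 18.1% with cG and 13.9% each with L and H, above the same backgrounds. With S the share there was 12.5%, close to its background of 11.6%. Without P replicate 2 the higher counts were 18 for S, 15 for cG, 14 for L and 9 for H, and without P replicate 1 that for H was 13. Scaling by total counts left the first 3 counts at 29, 25 and 25 and gave 16 for H, beside 12.4%, 11.1%, 6.83% and 4.14% of all peaks.

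At single sites, the Ifih1 downstream element was above P by 2.12 ± 0.13 (SE; adjusted p = 2.94e-34) with S, 2.0 ± 0.13 (SE; adjusted p = 4.52e-31) with cG, 2.0 ± 0.13 (SE; adjusted p = 4.57e-31) with L and 1.47 ± 0.14 (SE; adjusted p = 1.32e-18) with H. The start-site peak of Dhx58 was higher by 0.62, 0.73, 0.83 and 0.46 in the same order, with adjusted p of 3.89e-07, 2.17e-09, 4.73e-11 and 0.000699. That of Zbp1 was higher by 0.61, 0.75, 0.58 and 0.30, of which the H value was lost without any 1 of its 4 libraries (adjusted p between 0.0641 and 0.29). The Ddx58 start, whose calls against Ctrl rest on 1 control library, was higher than with P by 0.96 ± 0.17 (SE; adjusted p = 2.72e-06) with S, 1.06 ± 0.18 (SE; adjusted p = 2.31e-07) with cG and 0.93 ± 0.17 (SE; adjusted p = 2.02e-05) with L. With H it was higher by 0.84 ± 0.18 (SE), a call lost without H replicate 1 (0.63, adjusted p = 0.0605). The Ifih1 start was higher by 0.55, 0.62, 0.46 and 0.30, with the L call lost without L replicate 2 (adjusted p = 0.0723) and the H call without any 1 of the 4 libraries (0.0514 to 0.337). For Mb21d1 the start was higher by 0.30 ± 0.11 (SE; adjusted p = 0.0352) with S and 0.36 ± 0.11 (SE; adjusted p = 0.0114) with cG. Both were lost without P replicate 2 (0.26 and 0.147), and each without replicate 1 of its own group (0.257 and 0.0666).

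The pairs ask what a second ligand adds. Adding a ligand to P raised sensor peaks above the level with P alone: 24 with S (PS against P, 21.1%, background 9.36%), 21 with L (18.4%, background 4.17%), 14 with cG (12.3%, background 7.39%) and 10 with H (8.77%, background 1.7%). Ifih1 supplied 16 of the 24, 13 of the 21, 7 of the 14 and 6 of the 10. At the 72 peaks outside Ifih1 the higher shares were 11.1% with PS and 9.72% with PcG, nearer to their backgrounds. With PL and PH they were 11.1% and 5.56%, still well above theirs. Peaks lower than with P numbered 4 with PS (3.51%, background 8.78%), 3 with PL (2.63%, background 4.29%) and 4 with PcG (3.51%, background 7.35%). Scaling by total counts gave 16 higher (14.0%, background 9.21%) and 2 lower (1.75%, background 4.95%) for PcG, in place of 14 and 4. At the Ifih1 element the pairs stood above P by 2.02 (PS), 1.71 (PL), 1.65 (PcG) and 1.78 (PH) on the log2 scale (SE 0.13 to 0.14). The Dhx58 start stood above P in PS, PL and PcG by 0.79, 0.72 and 0.83.

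Fewer peaks changed when a second ligand was added to one of the other single ligands. Over the other 12 contrasts of a pair with a single ligand, 47 of 1368 tests were called, 20 higher (1.46%, background 2.86%) and 27 lower (1.97%, background 2.11%). Under total-count scaling there were 21 higher and 69 lower (3.09% and 4.08% of all tests). The added lower calls were mostly in ZcG against cG (24, from 2), ScG against cG (18, from 3), ScG against S (11, from 1) and ZS against S (7, from 2), and the shares of all peaks lower there were 14.6%, 10.5%, 4.98% and 3.99%. Per contrast the number ran from 0 to 14, and 11 to 28 of 114 peaks had an unadjusted p under 0.05. The contrasts with 0 calls were PL against L and LH against L, in edgeR and in DESeq2. Of all tested peaks, edgeR called 1.13% and 0.0645% there, so few calls would be found in any set of this size. PcG against cG gave 2 peaks higher (1.75%, background 5.59%) and 8 lower (7.02%, background 3.52%). With total-count scaling it gave 2 and 4 (1.75% and 3.51%, background 6.45% and 1.65%). The most calls were in ZS against Z, with 8 higher (7.02%, background 6.63%) and 6 lower (5.26%, background 8.53%). With total-count scaling there were 9 and 1 (7.89% and 0.877%), below the background of 12% and 4.17%. At the Ifih1 element LH exceeded H by 0.87 ± 0.12 (SE; adjusted p = 2.24e-09), ZS exceeded Z by 0.88 ± 0.14 (SE; adjusted p = 1.87e-07) and ZcG exceeded Z by 0.92 ± 0.14 (SE; adjusted p = 1.31e-07). ScG, in contrast, was under S (-0.52 ± 0.12, SE; adjusted p = 0.0103) and under cG (-0.39 ± 0.12, SE; adjusted p = 0.0335), and both calls were lost without any 1 of their libraries. ZS was under S (-0.51 ± 0.12, SE; adjusted p = 0.00384), a call lost without S replicate 2 (-0.43, adjusted p = 0.118) or ZS replicate 2 (-0.47, 0.105).

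A pair was also compared with the sum of its 2 single-ligand effects on the log2 scale, an interaction that is negative where the pair falls short of that sum. Negative interactions were called at 16 sensor peaks for ScG (14.0%, against 7.52% of all peaks), 5 for ZS (4.39%, against 2.6%), 5 for ZcG (4.39%, against 1.74%), 4 for LH (3.51%, against 2.62%) and 1 for PL (0.877%, against 4.18%). One positive interaction was called, for LH (0.877%, against 2.26%). Ifih1 supplied 13 of the 16 negative calls for ScG, 3 of 5 for ZS, 2 of 5 for ZcG and 2 of 4 for LH. At the 72 peaks outside Ifih1 the negative share was 4.17% with ScG, below its background. It was 2.78% each with ZS and LH, close to theirs, and 4.17% with ZcG, above its own. Of all tested peaks, 6.92% had a called positive interaction for ScG. PH, PS and PcG had 0 of 342 tests in edgeR and in DESeq2 (background 3.14%), with 7 to 11 peaks each at an unadjusted p under 0.05. Scaling by total counts gave 47 for ScG, 14 for LH, 13 for ZcG, 9 for PL, 8 for ZS, 4 for PcG and 1 each for PH and PS, all negative. With that scaling the negative calls over all peaks were 25.3% for ScG, 9.67% for LH, 6.99% for ZcG, 13.2% for PL, 3.91% for ZS, 5.03% for PcG, 3.23% for PH and 6.04% for PS. Leaving out Ctrl replicate 1 reduced the sum over the 8 pairs from 32 to 21. The ScG interaction sets 2 groups of high mitochondrial share (Ctrl and ScG) against 2 of low share (S and cG).

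The Ifih1 element gives the clearest case. With S it held 40.8 and 45.4 CPM, with cG 38.2 and 40.8, and with both 30.0 and 30.2, so the pair lay below either ligand alone. The interaction was -2.72 ± 0.19 (SE; adjusted p = 4.1e-29) for ScG. It was -1.33 ± 0.19 (SE; adjusted p = 3.04e-08) for LH, where the pair with 47.9 and 52.8 CPM was above L and H, and -1.45 ± 0.20 (SE; adjusted p = 1.16e-08) for ZS and -1.28 ± 0.20 (SE; adjusted p = 1.89e-06) for ZcG. At Dhx58 it was -1.02 ± 0.15 (SE; adjusted p = 2.75e-08) for ScG, -0.94 ± 0.15 (SE; adjusted p = 1.7e-06) for LH and -0.63 ± 0.16 (SE; adjusted p = 0.0102) for ZcG, the last lost without Ctrl replicate 1, Z replicate 1 or ZcG replicate 1 (adjusted p = 0.0828, 0.0759 and 0.0734). At Zbp1 it was -0.97 ± 0.15 (SE; adjusted p = 5.24e-08) for ScG, -0.75 ± 0.15 (SE; adjusted p = 0.000426) for ZcG and -0.64 ± 0.15 (SE; adjusted p = 0.00245) for ZS, the last lost without Ctrl replicate 2 (0.0568) or Z replicate 2 (0.088). The ScG interaction at Ddx58 was -0.98 ± 0.25 (SE; adjusted p = 0.00193), lost without Ctrl replicate 1 (-0.71, 0.0715). That at the Ifih1 start was -0.44 ± 0.15 (SE; adjusted p = 0.0331), lost without 6 of the 8 libraries it uses, left out 1 at a time.

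**Figure D4:**
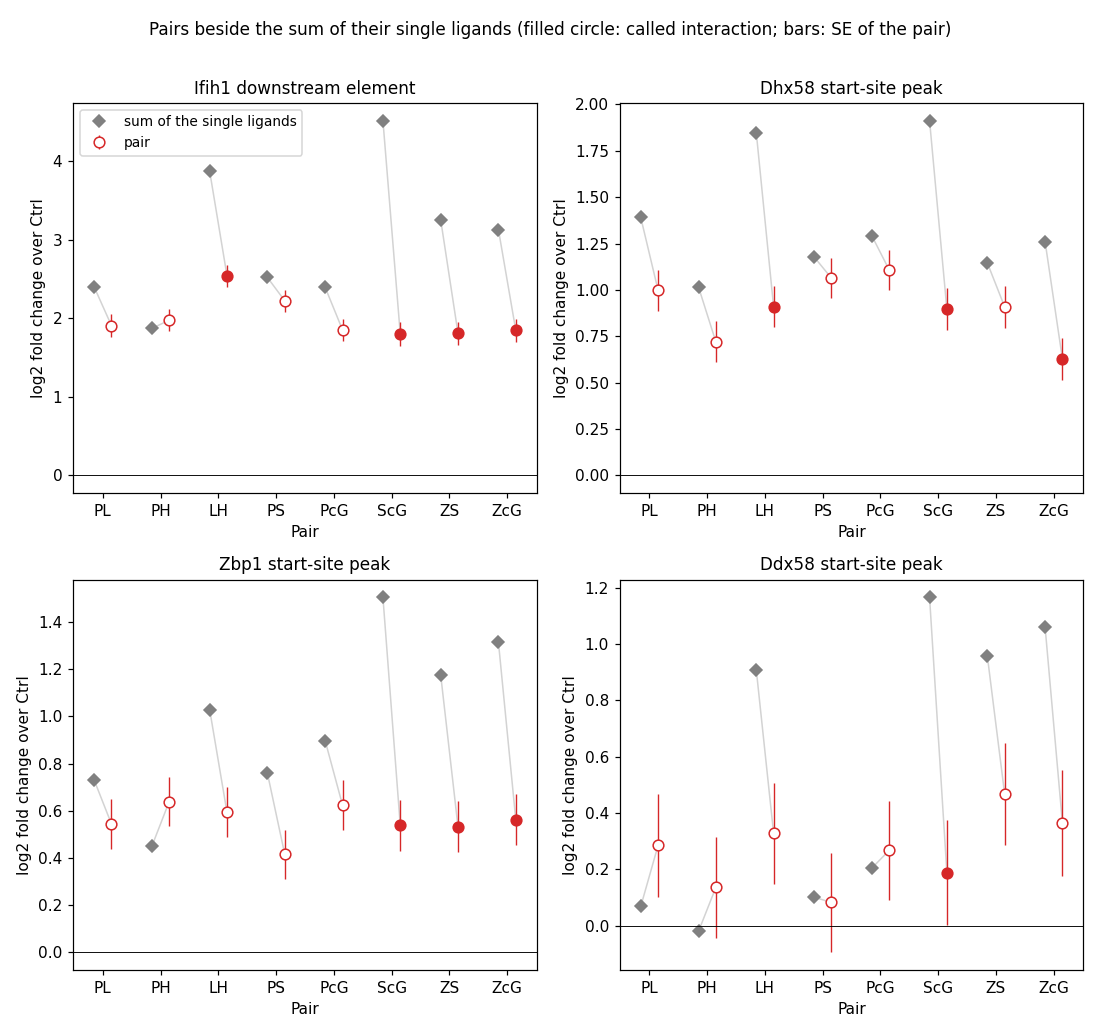
Log2 fold change over Ctrl (vertical axis) of each pair (red circle, SE bar; filled where the interaction was called) beside the sum of its 2 single ligands (grey diamond), for the 8 pairs on the horizontal axis at 4 sites. The circles fall furthest below the diamonds for ScG, where the interaction at the Ifih1 element was -2.72, and stay closer to them for the pairs with P.

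Few sensor peaks differed between a triplet and its pairs. Over the 9 contrasts of a triplet with one of its pairs, 13 of 1026 tests were called, 1 higher (0.0975%, background 0.497%) and 12 lower (1.17%, background 0.61%), with 8 to 23 peaks per contrast at an unadjusted p under 0.05. Without PLH replicate 1 the number was 8. Scaling by total counts gave 7 higher and 7 lower (1.29% and 0.247% of all tests). In PScG against ScG it gave 5 higher (4.39%, background 9.01%) and 0 lower (background 0.404%), in place of 0 and 3. PLH against LH had 5 of the 13, all lower (4.39%, background 0.203%), among them the Ifih1 element (-0.51 ± 0.11, SE; adjusted p = 0.00959). That call was lost without LH replicate 2 or either PLH library (adjusted p between 0.0824 and 0.247). The 1 higher peak was the Dhx58 start in PLH against PH (0.41 ± 0.10, SE; adjusted p = 0.0388), also lost without any 1 library. The Ifih1 start was lower in PScG than in ScG (-0.38 ± 0.11, SE; adjusted p = 0.0172), a call lost without either PScG library or ScG replicate 1.

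The surrounding pathway was described through gene lists. Of 16 genes of RIG-I-like receptor signalling, with 30 peaks within 1 kb, 9 peaks rose and 1 fell with S, 7 and 1 with L, 7 and 2 with cG, 2 and 1 with H, and 3 and 3 with P. The shares that rose were 30% with S (14.1% of all tested peaks), 23.3% with L (11.2%), 23.3% with cG (11.6%), 6.67% with H (5.21%) and 10% with P (11.1%). The shares that fell were 3.33% with S, L and H, 6.67% with cG and 10% with P, beside 13.8%, 11.1%, 5.46%, 11.6% and 9.45% of all peaks. Against P, 7 were higher with S (23.3%, all peaks 11.6%) and 9 with cG (30%, all peaks 11.1%). With total-count scaling the numbers higher and lower than Ctrl became 7 and 2 for P, while 18, 15 and 17 peaks rose with L, S and cG, beside higher shares of all peaks of 19.4% for P, 26.1% for L, 26% for S and 22.9% for cG. Rnf135 encodes the ubiquitin ligase that activates RIG-I. Its peak (chr11:80184644-80185769) held 2.29 and 3.18 CPM in Ctrl, 4.5 and 4.7 with P and 19.9 and 16.7 with L, and rose by 2.72 ± 0.22 (SE) with L, 2.42 ± 0.23 with cG and 2.13 ± 0.23 with S. The value with P was 0.73 ± 0.26 (SE; adjusted p = 0.0335), lost without Ctrl replicate 1 (0.53, adjusted p = 0.293) or either P library. Nlrc5, a regulator of MHC class I genes, rose by 0.89 ± 0.16 (SE; adjusted p = 1.52e-06) with cG and 0.80 ± 0.16 (SE; adjusted p = 1.77e-05) with L. The peak of Tomm70a, a mitochondrial import receptor that binds MAVS, fell with P by 0.62 ± 0.10 (SE; adjusted p = 4.87e-07) on the log2 scale. Tomm70a was also called lower with L, H, S and cG, but not with Z. With total-count scaling no peak of this list was called lower with L, H, S or cG. The Tomm70a value with S was -0.36, and 0.0055 with total-count scaling.

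Of 14 genes that regulate cGAS and STING, 13 had 20 peaks, and Nlrc3 had none within 1 kb. With S, 6 peaks rose and 1 fell, with L 5 and 2, with cG 5 and 1, with H 4 and 1, and with P 2 and 2. The shares that rose were 30% with S (all tested peaks 14.1%), 25% with L (11.2%), 25% with cG (11.6%), 20% with H (5.21%) and 10% with P (11.1%). The shares that fell were 5% with S, cG and H and 10% with L and P, beside 13.8%, 11.6%, 5.46%, 11.1% and 9.45% of all peaks. With total-count scaling 13, 12, 12 and 6 rose with S, L, cG and P, beside 26%, 26.1%, 22.9% and 19.4% of all peaks. Trim56, a ubiquitin ligase of this pathway, had a peak with 8.41 and 7.14 CPM in Ctrl, 10.0 and 9.75 with P and 19.7 and 17.7 with S, which rose by 1.27 ± 0.18 (SE) with S and 1.25 ± 0.18 with L. Samhd1, which depletes deoxynucleotides, was higher than with P by 1.0 ± 0.12 (SE) with cG and 0.72 ± 0.12 with S. Trex1, the nuclease that clears cytosolic DNA, rose by 0.65 ± 0.10 (SE; adjusted p = 3.3e-08) with cG.

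The 11 PYHIN genes, relatives of Aim2, had 19 peaks, of which 18 were tested. As a multigene family of near-identical copies their reads may be shared or lost in mapping, so the values of single genes are uncertain. With P, 1 peak rose (5.56%, all tested peaks 11.1%) and 5 fell (27.8%, all peaks 9.45%), and with total-count scaling 1 and 3. With S 9 rose (50%, all peaks 14.1%), with cG 8 (44.4%, all peaks 11.6%), with L 9 (50%, all peaks 11.2%), with H 4 (22.2%, all peaks 5.21%) and with Z 4 (22.2%, all peaks 4.16%). One fell with L and 1 with H (5.56% each, all peaks 11.1% and 5.46%). With total-count scaling 11 rose with S, 12 with cG, 11 with L and 9 with H, beside 26%, 22.9%, 26.1% and 11.1% of all peaks. Against P, 13 of the 18 peaks were higher with S (72.2%, all peaks 11.6%), 12 with cG (66.7%, all peaks 11.1%), 12 with L (66.7%, all peaks 5.19%) and 11 with H (61.1%, all peaks 4.96%). In these contrasts 0 were lower in any of the 4 by edgeR, by DESeq2 or at an unadjusted p under 0.05. The median log2 difference from P was 0.90 with S and 0.95 with cG. Ifi213 held 6.45 and 6.46 CPM in Ctrl, 3.59 and 3.11 with P and 14.4 and 14.2 with S, so that P lay under Ctrl (-0.95 ± 0.24, SE; adjusted p = 0.00106) and S above it (1.15 ± 0.19, SE; adjusted p = 4.25e-07). The S value was 2.09 ± 0.20 (SE) above P. Ifi205 and Ifi208 rose with S by 1.5 ± 0.14 and 1.54 ± 0.22 (SE).

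All 12 effector genes downstream of Zbp1 and Aim2 had peaks, 20 in total. With P 6 peaks rose and 1 fell, with L 4 and 2 and with S 3 and 2, while 5 rose with cG and 2 fell with H. The shares that rose were 30% with P (all tested peaks 11.1%), 25% with cG (11.6%), 20% with L (11.2%) and 15% with S (14.1%). The shares that fell were 5% with P and 10% with L, S and H, beside 9.45%, 11.1%, 13.8% and 5.46% of all peaks. With total-count scaling 9 rose with P, 15 with L, 9 with S, 11 with cG and 2 with H, beside 19.4%, 26.1%, 26%, 22.9% and 11.1% of all peaks, so that the order of the ligands in this list depends on the scaling. The Il1b peak, next to the gene of the cytokine that inflammasomes process, held 0.656 and 0.579 CPM in Ctrl, 5.11 and 5.56 with P and 0.720 and 0.738 with S. It rose with P by 3.1 ± 0.45 (SE; adjusted p = 6.4e-09) and was lower with S than with P (-2.86 ± 0.40, SE; adjusted p = 8.1e-10). A peak of Nlrp3, another inflammasome sensor, rose with P by 1.1 ± 0.15 (SE; adjusted p = 9.47e-10). At Il1b a peak was called higher than Ctrl with L as well, and at Nlrp3 with L, S and cG. Compared with P, a peak of Nlrp3 was lower with S, cG, L and H, and one of Il1b with S, cG and H but not with L. Mlkl, the executioner of necroptosis, rose by 0.75 ± 0.14 (SE; adjusted p = 1.21e-05) with cG and was above P by 1.02 ± 0.14 (SE) with cG and 0.77 ± 0.14 with S.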

How the data were processed

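ATAC-seq was read from 36 libraries in 18 groups of 2, taken from the labels. The values used are the raw counts per peak that the authors deposited, with a list of peak positions on mm10. The submitters' processing notes name Bowtie2 2.2.9, MACS2, bedtools and featureCounts, without their roles. Whether peaks were called on pooled libraries, and whether duplicates were removed, is not given in the sources used here.

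The mitochondrial peak was left out. Library sizes were scaled by TMM, peaks were kept by filterByExpr with a minimum count of 10 (119464 peaks), and edgeR 4.0.16 (R 4.3.3) fitted the quasi-likelihood model to all groups, with 18 residual degrees of freedom. The 54 contrasts were each adjusted by Benjamini-Hochberg, with a threshold of 0.05. Fold changes are fitted log2 values. The pipeline was tested on simulated data. Depth was 8181254 to 21985891 counts per library. Alternatives were total-count scaling, DESeq2 1.42.0 (test and size factors), no filter, thinned counts, the mitochondrial peak kept, only the compared groups, a 2 kb window, the replicate number as a block, and each library left out.

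The member genes and all lists were chosen with earlier results of these data known. The 8 start-site peaks were named, and per gene up to 3 other called peaks with the largest single-ligand change. Other peaks named were chosen after their values were seen.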

Additional observations from a re-analysis of the deposited data

Results flagged for a closer look

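At several sites the effect of a pair differed from the sum of its 2 single-ligand effects, as tested by the interaction term in edgeR. Sensor peaks with a called negative interaction numbered 16 for ScG (14.0%, against 7.52% of all tested peaks), 5 for ZS (4.39%, against 2.6%), 5 for ZcG (4.39%, against 1.74%), 4 for LH (3.51%, against 2.62%) and 1 for PL (0.877%, against 4.18%), and LH had 1 positive one (0.877%, against 2.26%). Of the 16 for ScG, 13 lie at Ifih1. At the 72 peaks outside Ifih1 the negative shares were 4.17% each with ScG and ZcG and 2.78% each with ZS and LH. Of these, only that of ZcG stood well above its background. At the Ifih1 element past the 3′ end, the log2 interaction was -2.72 for ScG, -1.45 for ZS, -1.33 for LH and -1.28 for ZcG. At the start-site peak of Dhx58 it was -1.02 for ScG, -0.94 for LH and -0.63 for ZcG. At that of Zbp1 it was -0.97 for ScG, -0.75 for ZcG and -0.64 for ZS. At the start-site peaks of Ddx58 and Ifih1 it was -0.98 and -0.44 for ScG. The part of the mitochondrial share, which was 59.4% in ScG and 61.0% in Ctrl beside 47.9% in S and 46.1% in cG, was not tested.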

How the results depend on the processing

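Counts of sensor peaks above Ctrl changed by more than 1.5 times with scaling by total counts for P (19), L (36), H (20), cG (37), Z (3), PL (37), PH (36), PS (46), PcG (39) and PScG (36), and called interactions rose to 97 from 32. With only the compared groups in the fit the counts were 2 for P, 2 for Z, 17 for ZS and 17 for ZScG. With counts thinned to one depth they were 3 for P, 15 for PcG, 13 for H against P and 84 (of 127) summed over pairs against single ligands. With a window of 2 kb they were 2 for Z, 15 for PcG and 21 interactions. The causes were not tested. Leaving out 1 library gave 0 to 4 for P, 16 to 20 for L, 9 to 11 for H, 16 to 23 for S, 12 to 19 for cG, 2 to 4 for Z, 16 to 21 for PL, 11 to 15 for PH, 19 to 24 for LH, 16 to 23 for PS, 11 to 17 for PcG, 12 to 18 for ScG, 16 to 17 for ZS, 13 to 15 for ZcG, 15 to 19 for PLH, 13 to 21 for PScG and 17 to 21 for ZScG. Against P it gave 18 to 27 for S, 15 to 24 for cG, 14 to 20 for L and 9 to 14 for H, and it gave 85 to 127 over pairs against single ligands, 21 to 34 interactions and 8 to 13 over triplets. The log2 value of Tomm70a with S turned from -0.36 to 0.0055 with total counts. Of 367 called single-peak values, total counts lost 39, thinning 52, DESeq2's test 22 and the replicate block 1. That 1 was the Dhx58 peak at chr11:100694979-100695284 with ZS (1.36, adjusted p = 0.0517 with the replicate block). The block also gave 1 peak in place of 0 for PScG against PS, and every other count stayed within 1.5 times its value. Same-numbered libraries did not deviate together: over 153 pairs of groups the correlation ran from -0.04 to 0.03.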

Other observations

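The sites whose pattern over the 18 group means was most like that of a start-site peak were looked up among 15239 peaks at the ends of other protein-coding genes, as a description without a test. The groups share libraries, scaling and depth across peaks. For Dhx58 they were Nos2, the inducible nitric oxide synthase (Pearson r = 0.959), Rasa4 (0.936) and Naa25 (0.934). For Zbp1 they were Iigp1, an interferon-inducible GTPase (0.913), Katna1 (0.903) and Fkbp9 (0.901). For Ifih1 they were Tmsb10 (0.900), Mill2 (0.885) and Enpp4 (0.867). For Aim2, whose start site was highest in Ctrl, they were Pdcd2l (0.910), the shared region of Arfrp1 and Zgpat (0.890) and Scaf4 (0.885).

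At the group level, the order of the start-site peaks gave little separation between neighbours. From the lowest to the highest group mean, 13 of 17 neighbouring groups overlapped in their libraries at Dhx58, 15 at Zbp1, 16 at Ddx58 and Aim2, and 17 at Ifih1, Mavs, Mb21d1 and Tmem173.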
